A study of Homo sapiens with 12 samples.

Results

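The 10 genes described here encode the hypoxia-inducible factors (HIFs), the ubiquitin ligase subunit VHL and the enzymes that sense oxygen for them. They were chosen by symbol, as EPAS1, HIF1A, HIF3A, ARNT, ARNT2, VHL, EGLN1, EGLN2, EGLN3 and HIF1AN, and each had 1 row among the 60617 gene IDs of both count tables. The values are read counts of total RNA libraries from 769-P, an established human cell line of clear cell renal carcinoma. There were 12 libraries in 4 groups of 3, all from the same line grown in RPMI1640 with serum, and the labels call the groups siDRAIC, siDRAIC-NC, sihnRNPA2B1 and sihnRNPA2B1-NC. An siRNA is a short double-stranded RNA that lowers the RNA it matches. DRAIC is a long noncoding RNA, and HNRNPA2B1 encodes an RNA-binding protein that has been described as a reader of m6A, a methyl mark on adenosines of RNA. Each NC group was taken as the control of the siRNA named with it, although the labels do not spell out the letters, the siRNA sequences, the dose or the time. The labels do not say that the 3 libraries of a group came from separate cultures, and the p-values then reflect the spread among these libraries alone, which may be technical.

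HIF is a heterodimer of an oxygen-regulated alpha subunit (HIF1A, EPAS1, also called HIF-2 alpha, or HIF3A) and a beta subunit (ARNT or ARNT2) that is present regardless of oxygen. With oxygen present, the prolyl hydroxylases EGLN1, EGLN2 and EGLN3 hydroxylate prolines of the alpha subunit, VHL binds the hydroxylated protein, and its ligase complex marks it for destruction, while the asparaginyl hydroxylase HIF1AN blocks binding of the coactivators EP300 and CREBBP. Loss of VHL function is the defining early lesion of clear cell renal carcinoma, in which EPAS1 is regarded as the main driver among the alpha subunits. Much of this control acts on protein, so RNA counts describe the supply of each component and not the amount or activity of HIF.

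The coding sequences around the hydroxylated prolines are shown because they are the point at which the alpha subunits meet the EGLN enzymes and VHL. Each is 30 bases, 5′ to 3′, from GENCODE 29 transcripts on GRCh38, with the codon of the proline in an LxxLAP motif in capitals. All 3 genes lie on the plus strand of these exons.
HIF1A first site: gatgctttaactttgctggccCCAgccgct
HIF1A second site: ttagacttggagatgttagctCCCtatatc
EPAS1 first site: gaggagctggcccagctggctCCCacccca
EPAS1 second site: ctggacttggagacactggcaCCCtatatc
HIF3A site: ctggatttggagatgctggccCCCtacatc
The HIF1A sites lie at chr14:61737043-61737072 in exon 9 and chr14:61740764-61740793 in exon 12, and the codons are those of prolines 402 and 564 of 826 residues. The EPAS1 sites lie at chr2:46376696-46376725 in exon 9 and chr2:46380242-46380271 in exon 12, for prolines 405 and 531 of 870 residues. The HIF3A site lies at chr19:46329219-46329248 in exon 12, for proline 492 of 669 residues in the transcript read.

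The promoters of EPAS1 and EGLN1 are shown. Of 7 members tested, these alone had an edgeR adjusted p below 0.05 after the sihnRNPA2B1 treatment. Each covers 300 bases, from 250 before to 50 after the gene's start in RefSeq on GRCh38.p14, 5′ to 3′ on the gene's strand. The capitals mark the match to the core of the hypoxia response element, searched as ACGTG and GCGTG on both strands.
EPAS1 promoter, chr2:46297157-46297456, plus strand: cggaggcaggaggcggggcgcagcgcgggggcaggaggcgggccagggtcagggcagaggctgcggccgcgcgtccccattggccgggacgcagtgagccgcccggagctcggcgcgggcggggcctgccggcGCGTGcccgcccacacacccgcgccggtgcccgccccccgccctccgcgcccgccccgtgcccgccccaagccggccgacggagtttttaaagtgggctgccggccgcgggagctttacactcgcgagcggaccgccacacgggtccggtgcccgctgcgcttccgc
EGLN1 promoter, chr1:231422238-231422537, minus strand: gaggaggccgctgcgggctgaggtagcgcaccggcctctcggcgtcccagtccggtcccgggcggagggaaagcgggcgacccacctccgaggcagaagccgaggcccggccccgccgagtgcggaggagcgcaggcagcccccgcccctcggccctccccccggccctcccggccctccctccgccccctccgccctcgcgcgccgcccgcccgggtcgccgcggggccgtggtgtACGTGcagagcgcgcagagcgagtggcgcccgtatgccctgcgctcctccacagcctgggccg
The match begins 117 bases before the start in EPAS1 and 13 bases before it in EGLN1. At the first listed start, HIF3A held 3 matches, EGLN2 held 2, HIF1A held 1, and ARNT, EGLN3 and HIF1AN held 0. A match was present in 48.45% of all 35116 promoters of this length, so a single match is common and is a description of letters only. The table held promoters of 8 members, and ARNT2 and VHL were not among them.

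Library totals ran from 30798303 to 42760528 counts, and 3 counts in 1 library corresponded to 0.0702 to 0.0974 CPM (counts per 1000000 counts of the library). DRAIC had 2, 1 and 2 counts in the siDRAIC-NC libraries and 3, 6 and 0 in the siDRAIC libraries, a ratio of 1.76 (95% exact binomial interval 0.531 to 6.70, counting error only), so a knockdown was not detectable at this depth and its treated group is named below by the label alone. HNRNPA2B1 was 419.6 ± 21.0 CPM (SD, n = 3) in sihnRNPA2B1-NC and 291 ± 16.7 CPM in sihnRNPA2B1, a log2 change of -0.56 (SE 0.05, edgeR adjusted p = 2.16e-09). It was 779.3 ± 115.8 CPM in siDRAIC-NC and 664.2 ± 115.5 CPM in the libraries labelled siDRAIC (log2 change -0.25, edgeR adjusted p = 0.622). HNRNPA2B1 was higher in siDRAIC-NC than in sihnRNPA2B1-NC by a log2 value of 0.90 (SE 0.12, edgeR adjusted p = 1.93e-05). Of 8 renal carcinoma and tubule markers, 7 reached 1 CPM (PAX8 418.8 to 531.9 CPM), and LRP2 did not. Blood and endothelial markers stayed below 1 CPM in the mean over the 12 libraries, with CD3E at 0 throughout. Of the fibroblast markers, COL1A1 and PDGFRB reached that mean, and their list summed to 2.55 to 6.59 CPM in siDRAIC-NC, 10.5 to 18.2 CPM in the libraries labelled siDRAIC. In the hnRNPA2B1 experiment this sum was 2.47 to 3.61 CPM in the controls and 3.56 to 4.12 CPM in the treated libraries. Of the hepatocyte markers only SERPINA1 reached 1 CPM, and TTR was at 0. The hepatocyte list, nearly all of it SERPINA1, summed to 205.7 to 356.1 CPM in siDRAIC-NC and 170.4 to 199.4 CPM in the libraries labelled siDRAIC. It summed to 52.5 to 56.7 CPM in sihnRNPA2B1-NC and 29.1 to 31.8 CPM in sihnRNPA2B1. SERPINA1 fell by 0.85 on the log2 scale with sihnRNPA2B1 (edgeR adjusted p = 1.4e-10) and was higher in siDRAIC-NC than in sihnRNPA2B1-NC by a log2 value of 2.47 (edgeR adjusted p = 6.17e-08). Mitochondrial mRNA took 6.79% to 7.41% of counts in siDRAIC-NC, 7.67% to 9.26% in the libraries labelled siDRAIC. The same share was 5.10% to 5.21% in the hnRNPA2B1 controls and 6.23% to 6.48% in the treated libraries. The part of any of these values in the results below was not tested.

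EPAS1 RNA rose after the sihnRNPA2B1 treatment, by more than any other member tested in that experiment. EPAS1 was 31.4, 31.8 and 31.8 CPM in the sihnRNPA2B1-NC libraries (31.6 ± 0.240, SD, n = 3). It was 77.6, 68.4 and 75.1 CPM in the sihnRNPA2B1 libraries (73.7 ± 4.76). Every treated library stood above every control library, and the controls lay within less than 1 CPM of each other. On the log2 scale EPAS1 rose by 1.19 (SE 0.07, 95% interval 1.05 to 1.32, edgeR adjusted p = 7.65e-14), a 2.27-fold rise. It was the 10th smallest p among the 15710 genes tested, and 381st by the size of the change, so many genes with less precise values moved further. In bulk RNA, a change in the number of cells of a type and a change in RNA per cell cannot be told apart.

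In the other experiment EPAS1 was 15.5, 22.9 and 19.6 CPM in the siDRAIC-NC libraries (19.4 ± 3.70) and 11.2, 13.5 and 17.0 CPM in the libraries labelled siDRAIC (13.9 ± 2.93). The groups overlapped, since the third treated library stood above the first control. The log2 change of -0.51 (SE 0.24, 95% interval -1.02 to 0.00, unadjusted p = 0.0514) had an edgeR adjusted p of 0.470. Over the 13 alternative fits of this experiment, the adjusted p of EPAS1 ran from 0.0687 to 0.885, both from edgeR.

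EPAS1 lies on chromosome 2 at 46293667 to 46386703 on the plus strand (GENCODE 29, GRCh38), with 20 merged exons and no exon base shared with another gene. HIF1A lies on chromosome 14 at 61695513 to 61748259 on the plus strand, with 5.15% of its exon bases shared with AL137129.1 on the same strand or HIF1A-AS1 on the other. HIF1A, the alpha subunit most widely expressed among tissues, was 21.2, 17.0 and 21.0 CPM in sihnRNPA2B1-NC and 19.7, 18.2 and 19.5 CPM in sihnRNPA2B1. These groups overlapped, and HIF1A moved by -0.07 on the log2 scale (SE 0.09, edgeR adjusted p = 0.583). It was 9.03, 8.07 and 9.66 CPM in siDRAIC-NC and 6.73, 5.00 and 7.09 CPM in the libraries labelled siDRAIC. These groups did not overlap, and the log2 fold change was -0.54 (SE 0.23, 95% interval -1.03 to -0.04), with an unadjusted p of 0.0358 and an edgeR adjusted p of 0.410. HIF1A thus missed the threshold in both experiments. Over the 13 alternative fits of the DRAIC experiment, the adjusted p of HIF1A ran from 0.0542 to 0.888, both from edgeR.

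HIF3A, on chromosome 19 at 46297046 to 46343433, encodes an alpha subunit with several splice forms, some of which dampen the other subunits. It had a total of 0 counts in all 6 libraries of the DRAIC experiment. It had 1 count in the second sihnRNPA2B1-NC library, 1 in the third sihnRNPA2B1 library and 0 in the other 4. In the libraries with 0 counts, HIF3A was therefore at or under the limit that a count of 0 allows, 0.0702 to 0.0974 CPM. The libraries with 1 count gave 0.0254 and 0.026 CPM, and that limit does not cover them. No fold change is given.

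**Figure D1:**
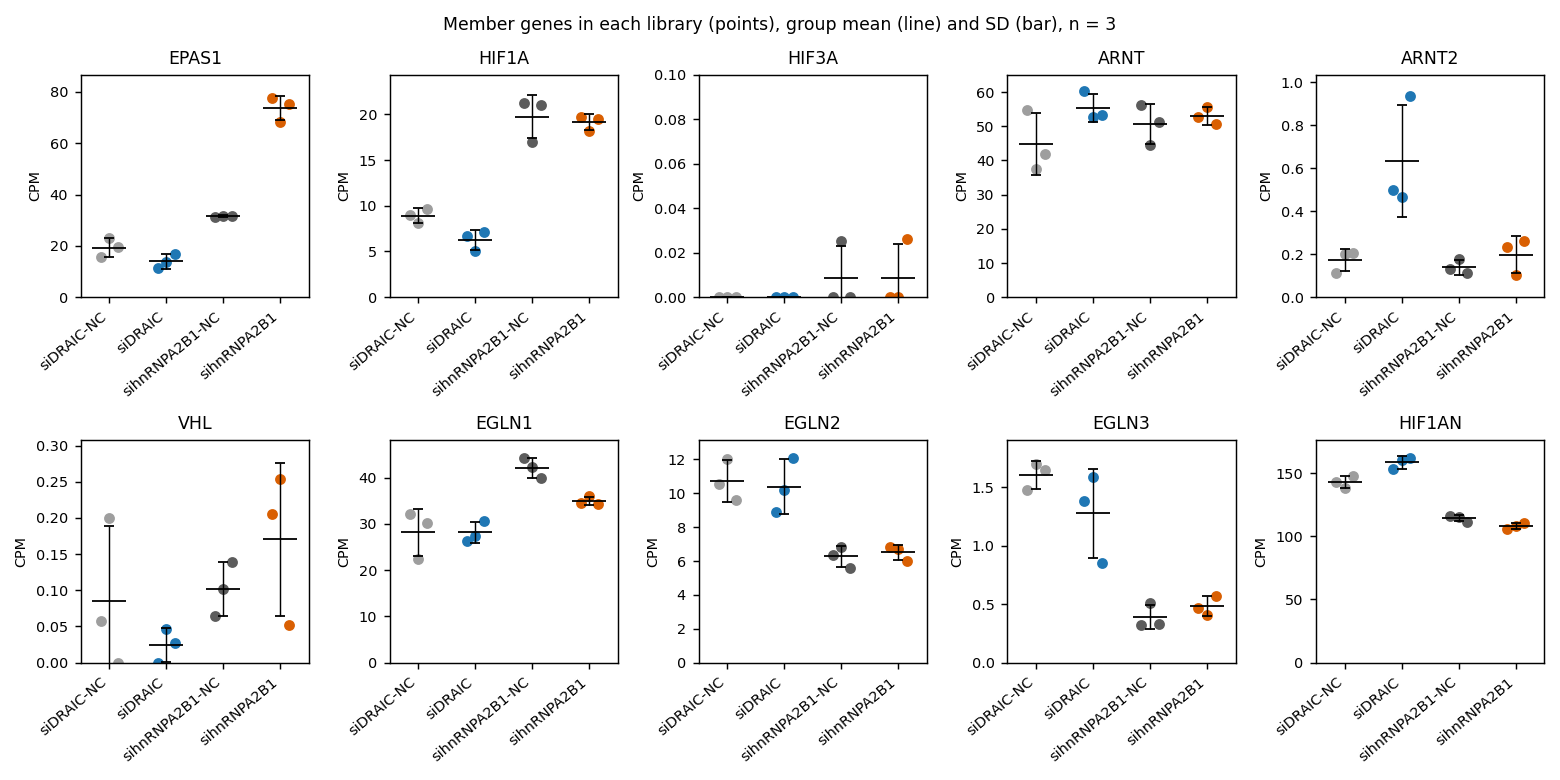
CPM of the 10 members in each library, with 1 panel per gene, points for libraries, a line for the mean and a bar for the SD (n = 3); each axis starts at 0 and has its own scale, and the lower part of a bar that would pass below 0 is not shown. EPAS1 in the sihnRNPA2B1 libraries (68.4 to 77.6 CPM) stands above all other libraries, while HIF1A, EGLN1, EGLN2, EGLN3 and HIF1AN separate mainly by experiment.

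ARNT, on the minus strand of chromosome 1 at 150809705 to 150876768, is the common beta subunit and also pairs with the aryl hydrocarbon receptor. It was 54.9, 37.5 and 41.9 CPM in siDRAIC-NC and 60.2, 52.8 and 53.2 CPM in the libraries labelled siDRAIC. In the other experiment it was 56.3, 44.5 and 51.3 CPM in sihnRNPA2B1-NC and 52.7, 55.7 and 50.7 CPM in sihnRNPA2B1. The groups overlapped in both experiments. The log2 fold changes were 0.29 (SE 0.18, edgeR adjusted p = 0.601) and 0.03 (SE 0.07, edgeR adjusted p = 0.768).

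ARNT2, on chromosome 15 at 80404350 to 80597937, is a beta subunit known mainly from the nervous system and kidney. It was counted 4, 8 and 8 times in siDRAIC-NC and 18, 20 and 35 times in the libraries labelled siDRAIC. All treated libraries stood above all controls, although at less than 1 CPM (0.173 ± 0.0519 against 0.634 ± 0.262 CPM). The summed counts of 73 and 20 gave a ratio of 3.58 (95% exact binomial interval 2.16 to 6.20, counting error only). The edgeR log2 fold change was 1.80 (SE 0.54, 95% interval 0.64 to 2.97), with an unadjusted p of 0.0053 and an adjusted p of 0.186. Same-numbered libraries of this experiment deviated together, and with the replicate number as a block the adjusted p was 0.0314 for a log2 change of 1.79. In the hnRNPA2B1 experiment ARNT2 had 4, 7 and 4 counts in the controls and 8, 4 and 10 in the treated libraries, a ratio of 1.39 (0.690 to 2.88), and it did not pass the filter on low counts. About 2.78% of its exon bases are shared with MIR5572 on the same strand and with AC108451.1 or AC108451.2.

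VHL, the substrate-recognition subunit of the ligase, lies on chromosome 3 at 10141008 to 10152220 on the plus strand, with 4 merged exons that share no base with another gene. It was counted 2, 8 and 0 times in siDRAIC-NC and 0, 2 and 1 times in the libraries labelled siDRAIC. It was counted 2, 4 and 5 times in sihnRNPA2B1-NC and 7, 10 and 2 times in sihnRNPA2B1. VHL thus had 10 or fewer counts in each of 12 libraries and passed the filter in neither experiment. The counting program and its annotation are not given in the sources. Whether the low counts reflect little VHL RNA or the counting at this locus was not tested. The ratio of summed counts was 0.294 (95% exact binomial interval 0.0520 to 1.14) for 3 against 10 counts, and 1.64 (0.741 to 3.81) for 19 against 11. Both intervals include 1. Per length, VHL was at a higher level than 28.2% of the 32825 genes compared in siDRAIC-NC, 19.4% in the libraries labelled siDRAIC, 32.3% in sihnRNPA2B1-NC and 36.0% in sihnRNPA2B1.

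EGLN1, the main HIF prolyl hydroxylase in most cells, fell slightly after the sihnRNPA2B1 treatment. It was 44.3, 42.3 and 39.9 CPM in sihnRNPA2B1-NC and 34.5, 35.9 and 34.3 CPM in sihnRNPA2B1 (42.2 ± 2.22 against 34.9 ± 0.875). The groups did not overlap, and EGLN1 fell by 0.30 on the log2 scale (SE 0.07, edgeR adjusted p = 0.00141). Fitted with all 12 libraries and 1 shared spread, the edgeR adjusted p was 0.255 for a log2 change of -0.31. In siDRAIC-NC it was 32.1, 22.4 and 30.1 CPM and in the libraries labelled siDRAIC 26.3, 27.5 and 30.7 CPM. These overlapped, with a log2 fold change of -0.02 (95% interval -0.43 to 0.39, edgeR adjusted p = 0.986), so a change of EGLN1 of the size seen in the other experiment lies inside the interval. The gene is on the minus strand of chromosome 1 at 231363751 to 231425044.

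EGLN2, a prolyl hydroxylase found in the nucleus, was 10.5, 12.05 and 9.61 CPM in siDRAIC-NC and 8.92, 10.2 and 12.1 CPM in the libraries labelled siDRAIC. It was 6.36, 6.83 and 5.62 CPM in sihnRNPA2B1-NC and 6.81, 6.68 and 6.03 CPM in sihnRNPA2B1. Both pairs of groups overlapped, with log2 fold changes of -0.07 (edgeR adjusted p = 0.951) and 0.02 (adjusted p = 0.942). Its locus, chromosome 19 at 40798996 to 40808433, is uncertain for counting, because 30.6% of its exon bases are shared with AC008537.1 and the readthrough RAB4B-EGLN2 on the same strand, and RAB4B-EGLN2 was counted 0 times in every library.

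EGLN3, a prolyl hydroxylase that is itself a HIF target, was 1.48, 1.70 and 1.65 CPM in siDRAIC-NC, from 52, 68 and 64 counts, and 1.39, 1.59 and 0.856 CPM in the libraries labelled siDRAIC. It was 0.325, 0.508 and 0.334 CPM in sihnRNPA2B1-NC, from 10, 20 and 12 counts, and 0.470, 0.406 and 0.572 CPM in sihnRNPA2B1. Both pairs of groups overlapped, and the log2 fold changes were -0.35 (SE 0.34, edgeR adjusted p = 0.773) and 0.26 (SE 0.45, edgeR adjusted p = 0.706). The gene lies on the minus strand of chromosome 14 at 33924231 to 34462774.

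HIF1AN, the asparaginyl hydroxylase, is on chromosome 10 at 100529072 to 100559998 and was the member with the highest CPM in siDRAIC-NC, in the libraries labelled siDRAIC, in sihnRNPA2B1-NC and in sihnRNPA2B1. It was 143.0 ± 4.79 CPM in siDRAIC-NC (lowest 138, highest 148) and 159 ± 4.99 CPM in the libraries labelled siDRAIC (153 to 163). It was 117, 116 and 112 CPM in sihnRNPA2B1-NC and 106, 109 and 111 CPM in sihnRNPA2B1. Neither pair of groups overlapped, yet the changes were small, with log2 values of 0.13 (SE 0.15, edgeR adjusted p = 0.824) and -0.11 (SE 0.06, edgeR adjusted p = 0.132). About 2.33% of its exon bases are shared with NDUFB8 or AL133352.1 on the other strand.

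Across the members, 0 of the 8 tested were called in the DRAIC experiment when it was fitted without a replicate block. In that fit edgeR called 0.713% of the 15986 genes tested at an adjusted p below 0.05 (0.582% upward and 0.131% downward). DESeq2 and limma-voom, fitted like edgeR without the replicate block, also called 0 members. With the block, edgeR called 1 member, ARNT2, and 1404 of the 15986 genes in place of 114. Without the block, 2 members, HIF1A and ARNT2, had an unadjusted p below 0.05, where 10.7% of all genes passed. Of the 8, 3 stood above 0 and 5 below it, and the median log2 fold change was -0.04 beside 0.00 over all tested genes. HIF1A, ARNT2 and HIF1AN did not overlap between the groups, 3 of 8, where 15.6% of all tested genes did not. In the hnRNPA2B1 experiment 2 of 7 tested members were called, EPAS1 upward and EGLN1 downward, where edgeR called 30.4% of 15710 genes (15.1% upward and 15.4% downward). The members' share is close to that background. At an unadjusted p below 0.05 the background was 40.1%. The 3 that did not overlap were EPAS1, EGLN1 and HIF1AN, where 42% of all tested genes did not, and the median was 0.02 beside 0.01.

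**Figure D2:**
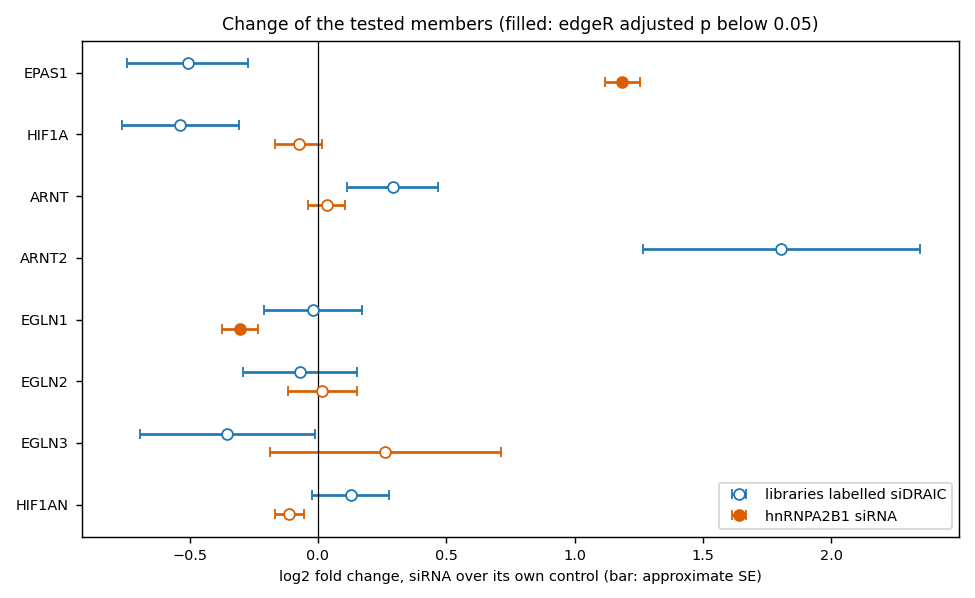
Log2 fold change of each tested member in each experiment (horizontal axis), with bars of 1 approximate SE from edgeR; filled points have an adjusted p below 0.05 and open points do not. EPAS1 (1.19) and EGLN1 (-0.30) in the hnRNPA2B1 experiment are filled. EPAS1 lies on opposite sides of 0 in the experiments, and ARNT2 was tested only in the DRAIC experiment.

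The change of EPAS1 differed between the experiments. The difference of its log2 fold changes, the DRAIC experiment minus the hnRNPA2B1 experiment, was -1.73 (SE 0.25, 95% interval -2.26 to -1.20, edgeR adjusted p = 0.0086), the 9th smallest p of the 17091 genes tested. It was the only member called among 8 tested, where edgeR called 0.211% of all genes (0.105% higher and 0.105% lower) and 9.13% had an unadjusted p below 0.05. HIF1A gave -0.49 (SE 0.22, edgeR adjusted p = 0.508), ARNT2 gave 1.32 (SE 0.80, adjusted p = 0.672) and EGLN1 gave 0.25 (SE 0.18, adjusted p = 0.741). EGLN3 gave -0.66 (SE 0.47, adjusted p = 0.752) and HIF1AN gave 0.20 (SE 0.13, adjusted p = 0.710). The change of EGLN1, called in 1 experiment, was therefore not shown to differ from that in the other.

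Levels between genes are given per length, as counts per kilobase of merged GENCODE 29 exons, divided by the sum of this value over all genes and multiplied by 1000000. The order depends on the length used. Merged exons held 6577 bases in EGLN2, 7359 in EGLN3 and 7265 in EGLN1, while the mRNAs read held 2102, 2709 and 7097. Levels of EGLN2 and EGLN3 would thus be higher beside EGLN1 with mRNA lengths, and that order was not computed. In siDRAIC-NC the order was HIF1AN at 34.8, ARNT at 23.4, EGLN1 at 13.2, EPAS1 at 8.94, HIF1A at 5.87, EGLN2 at 5.52, EGLN3 at 0.740, ARNT2 at 0.0755, VHL at 0.0676 and HIF3A at 0. Of neighbours in this order, EGLN1 overlapped EPAS1, HIF1A overlapped EGLN2, ARNT2 overlapped VHL, and VHL overlapped HIF3A. In the libraries labelled siDRAIC the first 4 genes came in the same order, at 37.99, 28.4, 13.0 and 6.38, and the order of EGLN2 (5.29) and HIF1A (4.08) was the other way round, with overlapping libraries.

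In sihnRNPA2B1-NC the level per length was 31.4 for HIF1AN, 29.7 for ARNT, 22.2 for EGLN1, 16.6 for EPAS1 and 14.7 for HIF1A, then 3.64 for EGLN2 and 0.202 for EGLN3. In sihnRNPA2B1 the order began with EPAS1 at 37.5, followed by ARNT at 30.3 and HIF1AN at 28.95, which overlapped each other, then EGLN1 at 17.9 and HIF1A at 13.8. EPAS1 thus moved from the fourth place to the first. It stood above 79.1% of the 32825 genes in sihnRNPA2B1-NC and above 87.5% in sihnRNPA2B1. In siDRAIC-NC and the libraries labelled siDRAIC it stood above 74.8% and 71.5%.

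The ratio of EPAS1 to HIF1A per length compares the RNA of these alpha subunits within a library, and not their protein. It was 1.04, 1.32 and 1.07 in sihnRNPA2B1-NC and 2.77, 2.66 and 2.71 in sihnRNPA2B1. It was 1.21, 2.00 and 1.43 in siDRAIC-NC and 1.17, 1.91 and 1.69 in the libraries labelled siDRAIC. EPAS1 was above HIF1A in all 12 libraries, and only the sihnRNPA2B1 libraries were above 2.5. The ratio of HIF1AN to EGLN1, the asparaginyl to the main prolyl hydroxylase, was 1.37, 1.43 and 1.46 in sihnRNPA2B1-NC and 1.60, 1.57 and 1.68 in sihnRNPA2B1. It was 2.32, 3.22 and 2.56 in siDRAIC-NC and 3.03, 3.05 and 2.76 in the libraries labelled siDRAIC.

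**Figure D3:**
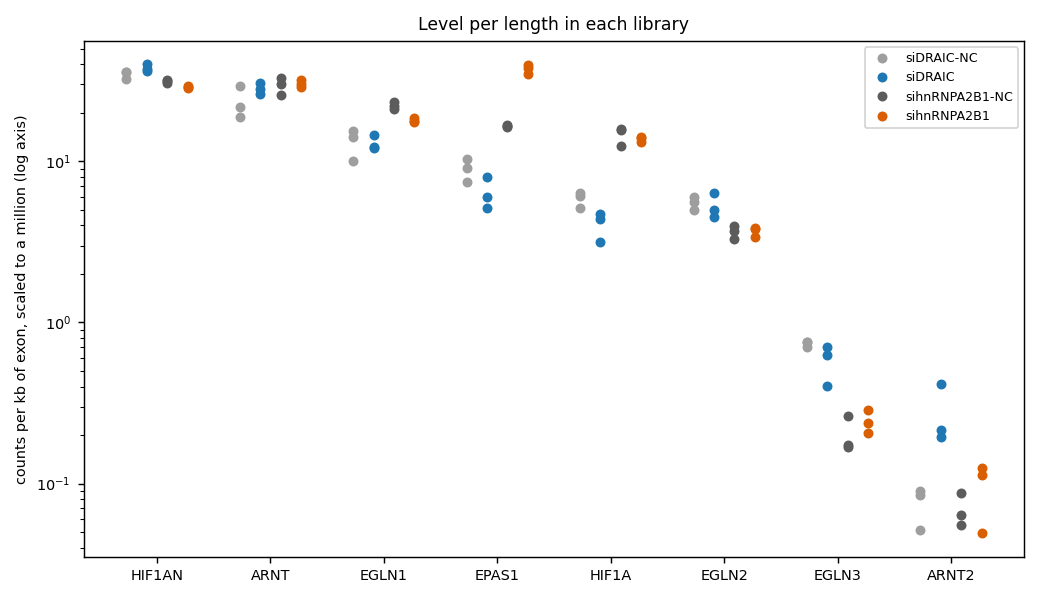
Level per length of 8 members in each library on a log axis, in counts per kilobase of exon scaled to 1000000, with 1 point per library. VHL and HIF3A are not drawn because some of their libraries are at 0. EPAS1 in sihnRNPA2B1 (mean 37.5) lies above ARNT and HIF1AN, and EGLN3 and ARNT2 lie far below the other members.

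The control groups differed in most members. Between siDRAIC-NC and sihnRNPA2B1-NC, 6 of 8 tested members were called and 6 did not overlap, where edgeR called 51.6% of 17091 genes (26.6% higher and 25% lower, 57.1% at an unadjusted p below 0.05) and 57.8% did not overlap. EPAS1 was lower in siDRAIC-NC by a log2 value of -0.68 (SE 0.18, edgeR adjusted p = 0.00442), HIF1A by -1.13 (SE 0.15, adjusted p = 2.13e-05) and EGLN1 by -0.58 (SE 0.13, adjusted p = 0.00142). EGLN2 was higher by 0.79 (SE 0.17, edgeR adjusted p = 0.00113), EGLN3 by 2.04 (SE 0.34, adjusted p = 0.000139) and HIF1AN by 0.33 (SE 0.09, adjusted p = 0.00857). ARNT (-0.18, edgeR adjusted p = 0.259) and ARNT2 (0.33, adjusted p = 0.673) were not called. EPAS1, HIF1A and EGLN1 were thus higher in the controls of the hnRNPA2B1 experiment and the other hydroxylases higher in those of the DRAIC experiment. For EGLN3 the summed counts of 184 and 42 gave a ratio of 4.08 (95% exact binomial interval 2.91 to 5.85, counting error only). The control reagent, the experiment and anything else that differs between the experiments cannot be told apart.

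HNRNPA2B1 protein has been described as binding RNA at m6A, for which GGACT holds a common consensus, and at TAGGG. The letters GGACT occur 6 times in the EPAS1 mRNA of GENCODE 29 (1.16 per kilobase), 9 times in EGLN1 (1.27 per kilobase) and 2 times in HIF1A (0.510 per kilobase), on the mRNA strand only. The median over 19599 mRNAs was 0.942 per kilobase, 87.4% held at least 1, and EPAS1 stood above 62.7% of them. TAGGG occurs 1 time in EPAS1 (0.194 per kilobase) and 2 times in EGLN1 (0.282 per kilobase), both below the median of 0.299 per kilobase. It occurs 15 times in HIF1AN (1.15 per kilobase, above 93.8% of mRNAs) and 5 times in ARNT (1.02 per kilobase, above 91.2%). EGLN3 held 0 of both. These are matches of letters and not sites.

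Other genes of the pathway were taken from 5 lists. VHL acts with ELOB, ELOC, CUL2 and RBX1, and a list of 14 genes of this ligase and of HIF turnover had 0 of 14 called in the DRAIC experiment, with a median log2 fold change of -0.10. After the sihnRNPA2B1 treatment 3 rose and 3 fell, with a median of -0.07 beside 0.01 for all genes. HSP90AA1, a chaperone that stabilises alpha subunits, rose by 0.40 and CUL2, the cullin scaffold, by 0.26. RACK1, which takes HIF1A to the proteasome without VHL, changed by -0.21 and UBE2M, the enzyme that conjugates NEDD8 to cullins, by -0.23. WSB1 also rose, and ELOB, a partner of VHL like CUL2, also fell.

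Of 12 transcription cofactors of HIF, 0 were called in the DRAIC experiment (median -0.06). After the sihnRNPA2B1 treatment 2 rose and 3 fell (median -0.06). The coactivators NCOA1 and NCOA2 rose by 0.44 and 0.40, and PKM, a glycolytic enzyme that also acts as a HIF1A coactivator, and RUVBL2 changed by -0.47 and -0.20. A list of 14 genes held other bHLH-PAS factors, the family of HIF and CLOCK, and the PAS-domain clock genes PER1, PER2 and PER3. Of these, 11 were tested, with 0 called in the DRAIC experiment (median -0.05). With sihnRNPA2B1, 1 rose and 3 fell (median -0.02). These were the clock genes NPAS2 (0.29), PER1 (-0.76), PER2 (-0.59) and BMAL2 (-0.43).

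The list of 20 other oxygen-dependent oxygenases, which hold collagen hydroxylases, histone and DNA demethylases and ADO, had 0 of 20 called in the DRAIC experiment (median 0.05). With sihnRNPA2B1, 4 of 19 rose and 3 fell (median 0.07). The collagen prolyl hydroxylase subunits P4HA1 (0.32) and P4HA2 (-0.40) moved in opposite directions, and the histone demethylases KDM4A (0.40) and KDM5B (0.26) rose. KDM3A also rose, while KDM5C, another histone demethylase, and PLOD3 fell. For the lists above, the counts called with sihnRNPA2B1 are to be read against the 30.4% of all genes that edgeR called in that experiment. The counts of 0 in the DRAIC experiment are to be read against 0.713%. They come from the fit without the replicate block. With the block edgeR called many more of all genes, and the lists were not counted in that fit.

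Of 28 HIF target genes, 25 were tested in each experiment. In the hnRNPA2B1 experiment 12 rose and 3 fell, with a median of 0.18 beside 0.01 for all genes and with 15.1% and 15.4% of all genes called upward and downward. The 12 were CA12, VEGFA, SLC2A1, NDRG1, BNIP3L, PFKFB4, LDHA, HK2, DDIT4, BHLHE40, TGFA and MXI1, with log2 changes of 0.14 to 1.07, and the 3 were BNIP3, PGK1 and CCND1. CA12, a membrane carbonic anhydrase, was 35.6, 30.3 and 33.7 CPM in sihnRNPA2B1-NC and 73.7, 75.1 and 64.3 CPM in sihnRNPA2B1, a log2 change of 1.07 (edgeR adjusted p = 2.92e-12). NDRG1, a hypoxia-induced gene of differentiation and stress, was 498, 492 and 442 CPM in the controls and 756, 778 and 807 CPM in the treated libraries, a log2 change of 0.68 (edgeR adjusted p = 8.9e-11). VEGFA, the angiogenic growth factor, rose by 0.33, and CCND1, a G1 cyclin and known EPAS1 target in renal carcinoma, changed by -0.51. Members of the list thus moved in both directions, and glycolytic LDHA and PGK1 moved apart.

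In the DRAIC experiment 0 of the 25 targets rose and 1 fell, with a median of -0.11 beside 0.00 for all genes and 20 of 25 below 0. In this fit, without the replicate block, edgeR called 0.582% of all genes upward and 0.131% downward. The 1 was CA12, at 142, 168 and 184 CPM in siDRAIC-NC and 72.4, 76.7 and 43.5 CPM in the libraries labelled siDRAIC, a log2 change of -1.38 (SE 0.23, edgeR adjusted p = 0.0203). Without the second siDRAIC-NC library, the third one or the third library labelled siDRAIC, the adjusted p of CA12 was 0.0961, 0.115 and 0.0641. NDRG1 was 138, 152 and 131 CPM against 107, 98.4 and 72.0 CPM, which did not overlap, with a log2 change of -0.63 (SE 0.18, edgeR adjusted p = 0.176, and 0.000513 with the replicate block). CCND1 and ANGPTL4, also uncalled, moved further, by -0.97 (SE 0.24, edgeR adjusted p = 0.113) and -1.39 (SE 0.37, adjusted p = 0.136). CCND1 was below 0 in both experiments. The changes of CA12 and NDRG1 differed between the experiments by -2.49 (SE 0.26, edgeR adjusted p = 0.000602) and -1.34 (SE 0.19, adjusted p = 0.0086), 2 of 25 targets. In the other lists 0 genes were called for this difference, where edgeR called 0.211% of all genes. CA9, CXCR4 and EPO were not tested, at 0 to 1, 0 to 20 and 0 to 7 counts a library.

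**Figure D4:**
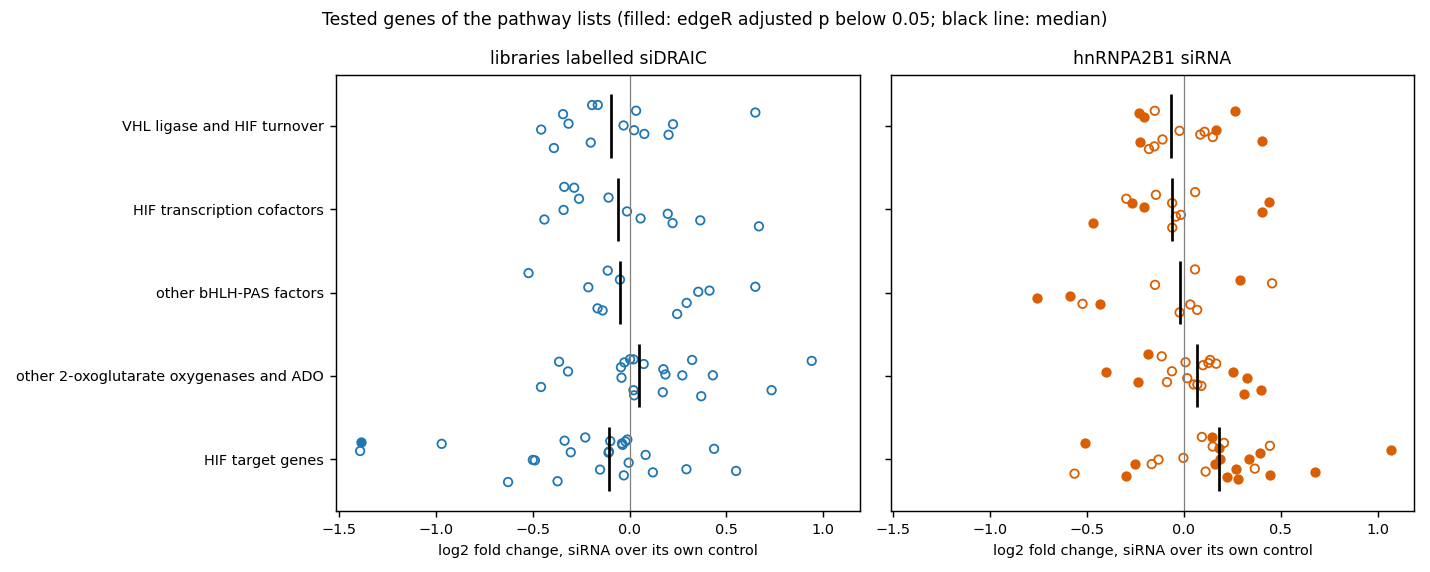
Log2 fold change of each tested gene of the 5 pathway lists in each experiment, 1 point per gene, with filled points for an edgeR adjusted p below 0.05 and a line at each list's median. The HIF targets lie mostly above 0 in the hnRNPA2B1 experiment (18 of 25) and mostly below 0 in the DRAIC experiment (20 of 25).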

How the data were processed

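The authors deposited raw read counts by Ensembl gene ID, in 1 table for each siRNA experiment, with 6 libraries in each. Reads were handled with tools that include STAR 2.7.10a, StringTie, DESeq2 and fastp 0.23.2, on hg38, per the submitters' processing notes. For the counting step, program, annotation and use of strand are not given in the sources, so reads of overlapping genes cannot be told apart. Of the 60617 IDs, 60261 matched a symbol and 58542 matched GENCODE 29. The tables held 0 lines without a gene ID, and 0 sample columns were left unused.

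The experiments were fitted separately (R 4.3.3, edgeR 4.0.16), with genes kept by filterByExpr at a minimum count of 10, TMM factors and the robust quasi-likelihood test, two-sided. Benjamini-Hochberg adjustment ran over every gene tested, and a gene was called at an adjusted p below 0.05. The difference of the changes and the control groups were tested with all 12 libraries in 1 fit. The script was tested on simulated counts. DESeq2 1.42.0 and limma 3.58.1 (voom), other scaling and filters, a replicate block, a joint fit and leaving out each library were the alternatives. CPM divides by the library total, and per-length levels use merged GENCODE 29 exons. Standard errors and 95% intervals of log2 changes were derived from the quasi-likelihood F and its degrees of freedom. Count ratios carry 95% exact intervals that cover counting error only.

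Deviations from the group means correlated between same-numbered libraries at 0.489, 0.227 and 0.277 in the DRAIC experiment, so its libraries may be paired by number. The main fit of that experiment did not use this pairing, and only the fit with the replicate block did. In the hnRNPA2B1 experiment the values were -0.0117, -0.0242 and -0.0456, which gave no sign of such pairing. The members and lists were chosen with earlier results of these data known. Named beside the members were the targeted genes and, from each list, up to 4 called genes per experiment with the smallest p. NDRG1, CCND1 and ANGPTL4 in the DRAIC experiment and the genes given only by name, to spell out a count, were chosen after their values were seen. Of 133 listed symbols, 131 had an ID.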

Additional observations from a re-analysis of the deposited data

Results flagged for a closer look

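The change of EPAS1 differed between the experiments by a test of the difference itself. The log2 difference, the DRAIC experiment minus the hnRNPA2B1 experiment, was -1.73 (edgeR adjusted p = 0.0086). EPAS1 was higher in 3 of 3 sihnRNPA2B1 libraries than in every library of its control group, and in the DRAIC experiment the groups overlapped. The mitochondrial share of counts was also higher in the treated libraries of both experiments (7.67% to 9.26% against 6.79% to 7.41%, and 6.23% to 6.48% against 5.10% to 5.21%), and its part was not tested.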

How the results depend on the processing

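EPAS1 kept its direction and its call in the hnRNPA2B1 experiment under all 13 alternatives run (log2 1.15 to 1.24) and in the difference of the changes under all 18 (-1.91 to -1.55, edgeR adjusted p up to 0.0495 without the first sihnRNPA2B1-NC library). With the replicate block, the number of members called in the DRAIC experiment was 1 in place of 0, and the block changed no other call of a member. It could not be fitted to the control groups, which share no experiment. At 1 CPM in 3 libraries ARNT2 was not tested. In the fit of all 12 libraries the number called in the hnRNPA2B1 experiment was 1 in place of 2. Leaving out 1 library gave 0 members in the DRAIC experiment, 2 to 3 in the hnRNPA2B1 experiment, 1 in the difference and 6 to 7 between the controls. The third in the hnRNPA2B1 experiment was HIF1AN without the third control (-0.14, edgeR adjusted p = 0.0329), and the seventh between the controls was ARNT without the first siDRAIC-NC library (-0.29, adjusted p = 0.0427). Without a filter HIF1AN missed the threshold between the controls (edgeR adjusted p = 0.0538).

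Directions that turned belonged to uncalled changes near 0. Leaving out 1 library gave EGLN1 -0.163 to 0.0419 and EGLN2 -0.179 to 0.0427 in the DRAIC experiment, EGLN2 -0.243 to 0.0189 in the difference, and ARNT -0.0435 to 0.110 and EGLN2 -0.0688 to 0.0979 in the hnRNPA2B1 experiment; the cause was not tested. In the fit of all 12 libraries, 283 genes in place of 4781 were called in the hnRNPA2B1 experiment, and of the list genes named there with values only CA12, PER1 and NDRG1 stayed called. Leaving out 1 library ended the calls of NPAS2 and RUVBL2 (edgeR adjusted p up to 0.059 and 0.0544).

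The number of all genes called in the DRAIC experiment, 114, was 1404 with the replicate block, 389 with DESeq2, 45 with limma-voom, 520 without a filter, 61 at 1 CPM in 3 libraries, 665 in the fit of all 12 libraries and 9 to 1035 when 1 library was left out. For the difference, 36, it was 196 with DESeq2, 263 without a filter, 258 with the block and 9 to 349 when 1 library was left out. Low counts limit VHL, HIF3A and ARNT2, since a few counts decide their values.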

Other observations

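The control groups also differed in the pathway lists. Of 20 other oxygenases tested, 3 were higher and 13 lower in siDRAIC-NC than in sihnRNPA2B1-NC (median log2 difference -0.70 beside 0.02 for all genes, with edgeR calling 26.6% of genes higher and 25% lower). Of 25 HIF targets 6 were higher and 15 lower (median -0.41). Of 12 other bHLH-PAS and PER genes 1 was higher and 6 were lower (median -0.84), with clock genes in both directions. BMAL1, CLOCK, PER1, PER2 and PER3 were among the lower, NPAS2 was the higher (log2 difference 1.24), and BMAL2 was not called (log2 difference 0.31). In the ligase list 5 were higher and 3 lower, and among cofactors 4 and 4. Experiment and control reagent cannot be told apart.

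Of 6 transcripts beside the members, 1 was tested in the DRAIC experiment (RAB4B) and 2 in the hnRNPA2B1 experiment (RAB4B and HIF1A-AS3). Of these, 0 were called, where edgeR called 0.713% and 30.4% of all genes. HIF1A-AS1, at 0 to 7 counts a library, was tested in neither experiment. HIF1A-AS3, at 1 to 55 counts a library, was not tested in the DRAIC experiment.

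After the group means were subtracted, the genes whose log2 CPM followed EPAS1 most closely over the 12 libraries were UBE2G1, NDFIP1 and ATAD3B (Pearson r of 0.974 each, of 10248 genes compared). For HIF1A they were NAP1L4 (0.944), LEMD3 (0.917) and TDRP (0.912), and for EGLN3 CCS (0.961), TMEM120A (0.950) and C22orf23 (0.943). The points share library depth and scaling, and these values are descriptions of the closest of many genes.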
